A study of Mus musculus with 41 samples.

Results

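The p53 pathway was followed through 10 genes in mouse mesothelioma cell lines that all lacked Cdkn2ab. The genes were Trp53, which encodes p53, its regulators Mdm2 and Mdm4, and the p53 target genes Ccng1, Bax, Bbc3, Sesn2, Zmat3, Phlda3, and Trp53inp1. They were chosen by name as the factor, its negative regulators, and known targets, and make up 10 of the 27197 genes of the count table. Earlier results of these data were known when they were chosen. Messenger RNA was counted in 3 BNC lines (Bap1-/-;Nf2-/-;Cdkn2ab-/-; JB81, JB91, and JB97) and 3 NC lines (Nf2-/-;Cdkn2ab-/-; JB84, JB87, and JB93), so that the comparison asks how the pathway differed with Bap1 in cells without Arf. The lines were grown out at early passage from pieces of primary thoracic tumors of mice on a mixed FVB/Bl6/129Ola background. Tumors had been started in 6 to 8 week old mice, given cyclosporine A in the drinking water, by an adenovirus that carries Cre under the ubiquitous CMV promoter, so Cre was not restricted to mesothelial cells. Floxed Bap1 and Nf2 were recombined by Cre, Ink4a and Ink4b were missing from the germline, and p19Arf was deleted conditionally. No line with intact Cdkn2ab was among those analysed, so the effect of Cdkn2a loss itself cannot be read from these data. Tumor RNA was not analysed here.

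p53 is a transcription factor that is kept low in unstressed cells by Mdm2, a ubiquitin ligase that marks it for degradation, and by Mdm4, which blocks its activation domain. p19Arf, the second product of Cdkn2a, binds Mdm2 and frees p53 when oncogenes drive the cell, and Cdkn2a is among the genes most often lost in mesothelioma. p53 is controlled mainly as a protein, so the level of Trp53 messenger RNA says little about p53 activity. Mdm2 and Ccng1 are themselves targets that feed back on p53.

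The libraries held between 12377675 and 23936922 counted reads, and 3 reads, the floor used for detection, stood for 0.133 to 0.247 CPM, the count scaled to library size. Cdkn2a had at most 12 reads and Cdkn2b at most 1 read in any line. Bap1, of which only some exons were floxed, was read at 43.2, 44.1, and 38.0 CPM in JB81, JB91, and JB97 and at 61.5, 60.6, and 64.3 CPM in JB84, JB87, and JB93, so its messenger RNA was lower but not absent in the lines labelled BNC. Nf2, floxed as well, was read at 88.3 to 123 CPM in the 6 lines, so gene-level counts do not show its loss. The lines were not equally distinct. JB81 and JB91 differed by more than 2-fold at 5 of 10511 genes and JB84 and JB93 at 8 of 10545 genes, whereas the other pairs within a group differed at 1562 to 2466 genes. The chi-square of the counts had a mean per gene of 16.4 and 24.3 and a median of 1.01 and 1.42 within the close pairs, against medians of 20.5 to 34.5 for the other pairs within a group. Whether a close pair is 1 culture sequenced more than once or separate lines cannot be told from these values. All 6 lines were kept as labelled, with n = 3 per group resting on that, and values are also given with 1 line of each close pair left out. Nothing in the labels says that the lines came from separate mice, so p-values measure only the spread between these samples. The mesothelial marker genes summed to 136 to 687 CPM in BNC lines and 2306 to 3216 CPM in NC lines, and mesothelin (Msln) was at 0.22, 0.44, and 230.0 CPM in JB81, JB91, and JB97 and at 901 to 2151 CPM in NC lines. Wt1 of the same list was at 77.4 to 132 CPM in BNC and 76.9 to 113 CPM in NC lines, and Upk3b was at 166 CPM in JB97, within the NC range of 162 to 209 CPM, but at 2.48 CPM in both JB81 and JB91. Mesenchymal markers summed to 10402 to 23066 CPM in BNC and 2044 to 9277 CPM in NC lines. Of that list Pdgfrb and Acta2 were higher in every BNC line, but Vim, Col1a1, and Pdgfra overlapped between the groups. Vim was at 4434 CPM in JB97 and 4540 CPM in JB87, and Col1a1 at 3597 and 3943 CPM. The endothelial list summed to 0.309 to 7.52 CPM in BNC and 51.7 to 61.7 CPM in NC lines, with Kdr nearly all of the NC sum. Leukocyte markers summed to at most 4.92 CPM, with 4 of 6 at 3 reads or fewer in every line, and those of lung epithelium were at 0. The proliferation markers Mki67 and Top2a summed to 1619 to 1915 CPM in the BNC lines and 1698 CPM in JB87, but to 626 and 592 CPM in JB84 and JB93. The part of these differences between lines in the results that follow was not tested, and in bulk RNA fewer cells of a kind and less RNA per cell cannot be told apart.

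Matches to the sequence bound by p53 were searched near the starts of these genes, and those of members and of the other targets with at most 1 mismatch are printed because their genes are compared next. The p53 full consensus site is a pair of adjoining 10-base elements, each built of purines, a core of C, A or T, A or T, and G, and then pyrimidines. It was searched without a spacer on both strands within 2000 bases of the annotated start of the principal transcript, with the C and G of both cores required. With no mismatch allowed, 0.0938% of the 11732 protein-coding genes tested had a match, and Zmat3 was the 1 member among them. With at most 1 mismatch the share was 0.648%, and Ccng1 was added with a pair of matches, as were 2 of 35 other p53 target genes, Gtse1 and Psrc1. With at most 2 mismatches the share was 4.39%, Bax was added, and 9 of the 35 other targets had a match. Capitals mark the 20-base match, written 5′ to 3′ in the direction of the gene on GRCm38, with flanking intron bases in lower case where no exon is touched.
Zmat3, intron 1, chr3:32364331-32364350, minus strand, 0 mismatches: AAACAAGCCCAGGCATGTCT
Ccng1, intron 1, chr11:40754936-40754955, minus strand, 1 mismatch, at position 2 of the match: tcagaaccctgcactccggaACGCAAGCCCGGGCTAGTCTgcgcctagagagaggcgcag
Bax, intron 1, chr7:45466574-45466593, minus strand, 2 mismatches, at positions 6 and 20: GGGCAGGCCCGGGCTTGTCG
Psrc1, intron 3, chr3:108384656-108384675, plus strand, 1 mismatch, at position 10: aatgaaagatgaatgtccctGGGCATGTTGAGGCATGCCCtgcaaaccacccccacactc
Gtse1, intron 1, chr15:85859945-85859964, plus strand, 1 mismatch, at position 10: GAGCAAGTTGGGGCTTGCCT

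The other Ccng1 match lies upstream of the gene, 160 bases before the start, in the promoter sequence given by RefSeq for GRCm38.p6. RefSeq promoter entries were found for 8 of the 10 members, and only the Ccng1 promoter is printed because it holds such a match. It has 1 mismatch, at position 5 of the capitals.
Ccng1 promoter, chr11:40755312-40755536, minus strand: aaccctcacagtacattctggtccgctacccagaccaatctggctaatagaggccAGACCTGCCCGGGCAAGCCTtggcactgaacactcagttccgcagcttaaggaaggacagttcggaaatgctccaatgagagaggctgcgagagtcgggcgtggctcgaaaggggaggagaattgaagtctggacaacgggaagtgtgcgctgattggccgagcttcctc
A match describes letters only, and no binding was measured. The other 7 members had no match of this form in the window, which says nothing about spaced or more distant sites.

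**Figure D1:**
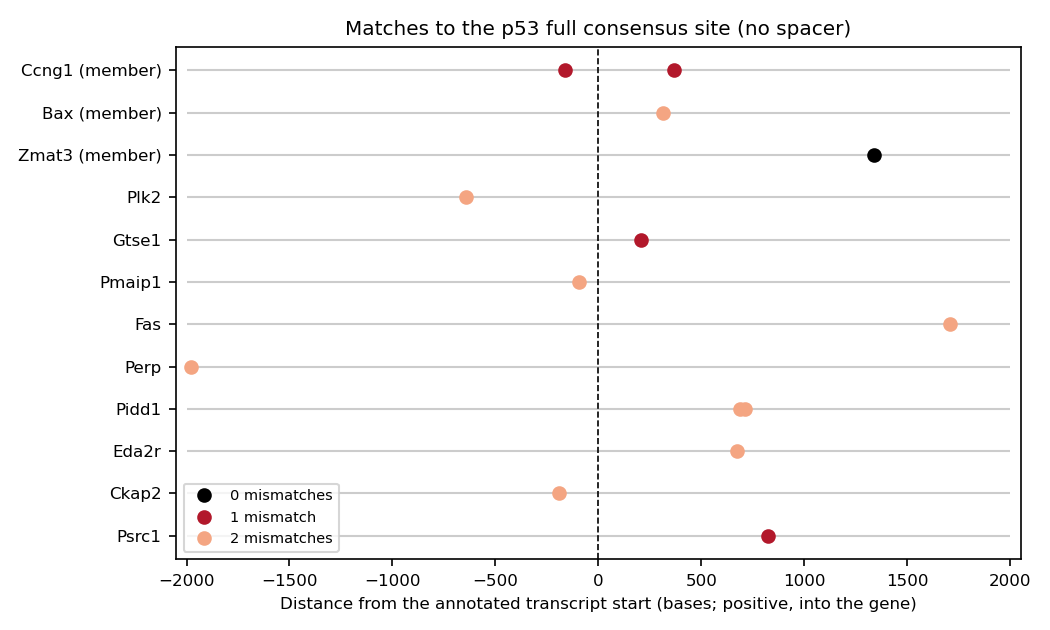
Position of each match to the p53 full consensus site (horizontal axis, bases from the annotated start, positive into the gene) in the members and other p53 target genes that had 1 with at most 2 mismatches; black, red, and orange points have 0, 1, and 2 mismatches. Ccng1 has a match on each side of its start, and the Zmat3 match without mismatch lies 1338 bases into the gene.

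Of the 10 genes, 2 passed an adjusted p-value of 0.05, Mdm2 and Zmat3, and both were lower in the BNC lines (quasi-likelihood test of edgeR, Benjamini-Hochberg adjusted over the 12376 genes with enough reads). Of all genes tested, 14.2% passed this threshold, 8.45% in the lower direction. Of all genes, 1.1% passed the stricter rule of more than 2-fold at an adjusted p-value under 0.01, 0.654% in the lower direction, and no member did. At an unadjusted p under 0.05, 5 members were lower and 0 higher, against 19.7% and 15.9% of all genes, by edgeR. DESeq2 placed 5 members, all lower, past an adjusted p-value of 0.05 (30.4% of all genes, 16.5% in the lower direction) and 1 past the stricter rule (15.1% of all genes). In 4 members, Mdm2, Ccng1, Zmat3, and Phlda3, every BNC line was below every NC line, an order that 21.4% of all genes showed. No member showed the reverse order, which 20.1% of all genes did, so 4 of 10 members separated the groups against 41.5% of all genes. The mean was lower in BNC in 8 of the 10 members and in 50.2% of all genes. The median log2 fold change of the members was -0.61, and that of all genes tested was -0.0023. With JB91 and JB93 left out, no tested gene passed an adjusted p-value of 0.05, and the members that had passed no longer did.

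Trp53 itself (ENSMUSG00000059552; chr11:69580359-69591873) was read at 150, 176, and 265 CPM in JB81, JB91, and JB97 and at 94.6, 256, and 122 CPM in JB84, JB87, and JB93. The groups overlapped, with JB97 and JB87 highest and JB84 lowest. The means were 197 ± 60.1 CPM in BNC and 158 ± 86.0 CPM in NC lines (SD, n = 3 each), and the log2 fold change of 0.32 (SE, the standard error, 0.42) did not pass (edgeR adjusted p = 0.602). Its spread within the groups, an SD of 0.604 on the log2 scale, was above the median of 0.346 of all genes. The 3 genes whose log2 CPM followed Trp53 most closely over the 6 lines were Rplp0, a ribosomal protein gene, Ptges2, a prostaglandin E synthase gene, and Ubqln4, a ubiquilin gene (Pearson's r of 0.999, 0.998, and 0.998). With so few lines, 709 genes had an r above 0.9, and the lines share the close pairs described above.

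**Figure D2:**
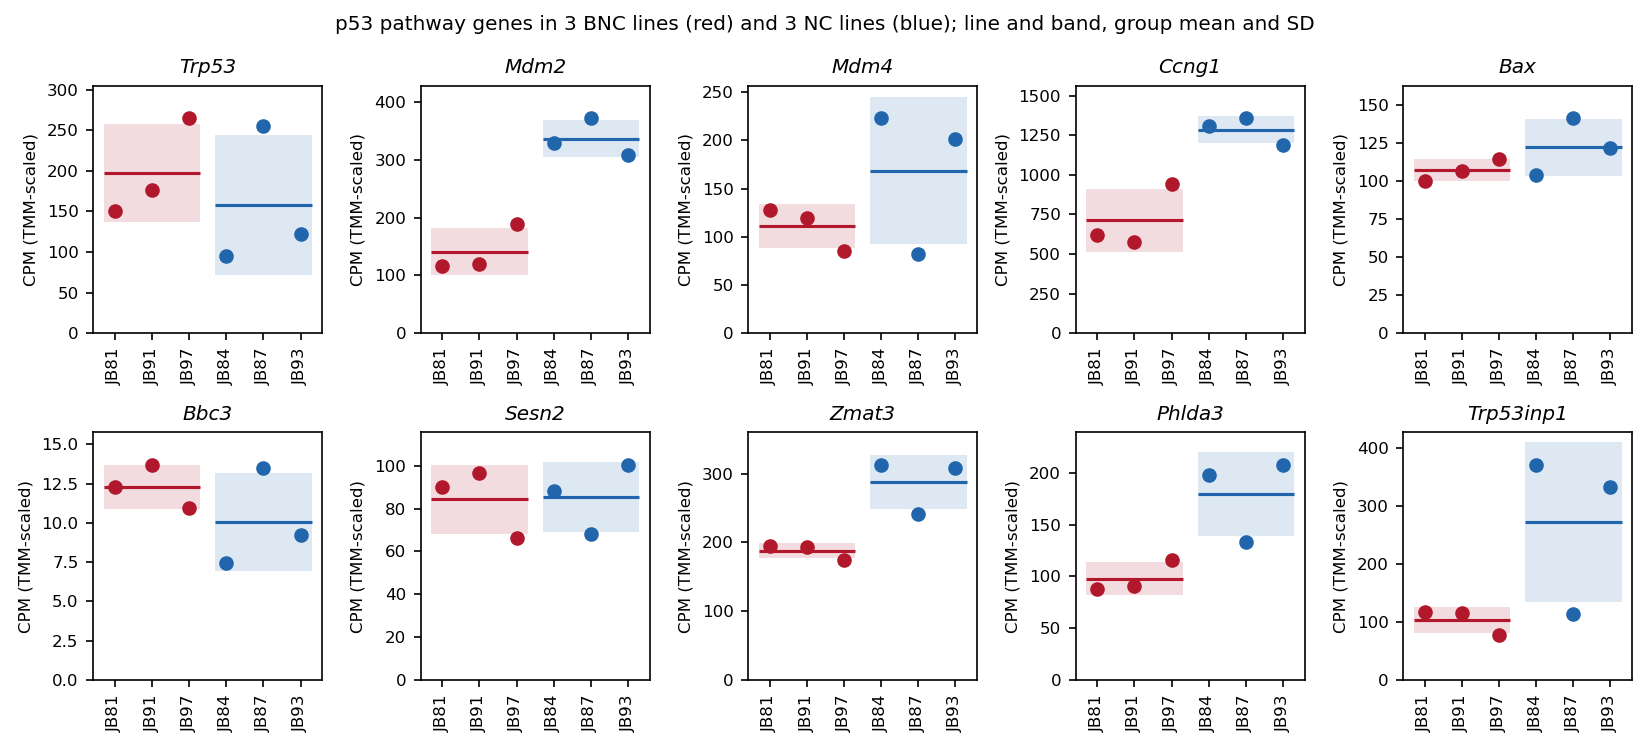
Level of each of the 10 genes (vertical axis, TMM-scaled CPM from 0) in each cell line; red points are BNC lines, blue points NC lines, and line and band give the mean and SD of a group. Mdm2, Ccng1, Zmat3, and Phlda3 are the genes in which no BNC point reaches an NC point, while the groups overlap in the other 6 genes.

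Among the regulators, Mdm2 (ENSMUSG00000020184; chr10:117688875-117710758) was read at 116, 119.4, and 189 CPM in JB81, JB91, and JB97 and at 329, 372, and 309 CPM in JB84, JB87, and JB93. The lowest NC line was well above the highest BNC line. Mdm2 fell from 337 ± 32.2 CPM in NC to 141 ± 41.2 CPM in BNC lines (SD, n = 3 each), 2.38-fold (log2 fold change -1.25, SE 0.23; edgeR adjusted p = 0.0257). It is both the ligase that degrades p53 and a p53 target. With JB91 and JB93 left out the log2 fold change was -1.21 (edgeR adjusted p = 0.347). It also missed the threshold without JB81, JB91, JB84, or JB93 alone (adjusted p between 0.0955 and 0.129, edgeR).

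Mdm4 (ENSMUSG00000054387; chr1:132959484-133030561), the relative of Mdm2 that inhibits p53 without degrading it, was read at 128, 119.3, and 85.2 CPM in JB81, JB91, and JB97 and at 223, 81.9, and 201 CPM in JB84, JB87, and JB93. The groups overlapped because JB87 was lowest of all 6 lines, in contrast to Mdm2, which was highest there. The log2 fold change of -0.60 (SE 0.40) did not pass (edgeR adjusted p = 0.308). Over the 6 lines Mdm4 ran against Trp53, being highest in JB84 and JB93, where Trp53 was lowest, and lowest in JB97 and JB87, where Trp53 was highest.

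Ccng1 (ENSMUSG00000020326; chr11:40748552-40755311) encodes cyclin G1, which recruits a phosphatase to Mdm2 and is among the strongest p53 targets. It was read at 623, 575, and 940 CPM in JB81, JB91, and JB97 and at 1308, 1357, and 1191 CPM in JB84, JB87, and JB93. No BNC line reached an NC line, and JB97 was the highest BNC line, as for Mdm2. The means were 713 ± 199 and 1285 ± 85.4 CPM (SD, n = 3 each), and the log2 fold change of -0.85 (SE 0.23) missed the threshold (edgeR adjusted p = 0.0577), which it passed without JB97 or JB87 (edgeR adjusted p = 0.0101 and 0.0480). Scaled by exon length, Ccng1 was the most abundant of the 10 genes, with 164 to 386 RPKM (CPM divided by exon length in kilobases) over the lines, and Bbc3 the least, with 3.51 to 6.45 RPKM. By median RPKM, Phlda3, Bax, Mdm2, Trp53, Sesn2, Zmat3, Trp53inp1, and Mdm4 stood between them in that order, and the ranges over lines of each neighbouring pair overlapped except for Phlda3 below Ccng1.

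Zmat3 (ENSMUSG00000027663; chr3:32334792-32366014), a zinc finger RNA-binding protein that acts in p53-dependent tumor suppression, was read at 195, 193, and 175 CPM in JB81, JB91, and JB97 and at 313, 242, and 309 CPM in JB84, JB87, and JB93. The BNC lines lay close together, below all NC lines. Zmat3 fell from 288 ± 40.0 to 188 ± 10.9 CPM (SD, n = 3 each), or -0.62 on a log2 scale (SE 0.16; edgeR adjusted p = 0.0497). Without JB81, JB91, JB97, JB84, or JB93 it no longer passed (adjusted p between 0.0699 and 0.185, edgeR), and with both JB91 and JB93 left out the log2 fold change was -0.59 (edgeR adjusted p = 0.553).

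Phlda3 (ENSMUSG00000041801; chr1:135766119-135769136) encodes a small membrane-binding protein that restrains Akt. It was read at 87.6, 90.4, and 116 CPM in JB81, JB91, and JB97 and at 198, 134, and 208 CPM in JB84, JB87, and JB93. The groups did not overlap, but JB97 and JB87 lay near each other. The log2 fold change, -0.88 (SE 0.22), narrowly missed the threshold (edgeR adjusted p = 0.0518). Trp53inp1 (ENSMUSG00000028211; chr4:11156431-11174379), a stress protein that promotes p53 activity and autophagy, was read at 118, 115, and 77.5 CPM in JB81, JB91, and JB97 and at 372, 114, and 333 CPM in JB84, JB87, and JB93. JB87 lay among the BNC lines, and the wide NC values of 273 ± 139 CPM (SD, n = 3) left the log2 fold change of -1.40 (SE 0.46) short of the threshold (edgeR adjusted p = 0.0889). Without JB87 the Trp53inp1 value was -1.75 (edgeR adjusted p = 0.00346), and without JB87 or JB97 Phlda3 passed as well (edgeR adjusted p = 0.00619 and 0.0401). Without JB87 and JB97, 51.9% and 25.4% of all genes passed.

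In Bax, Bbc3, and Sesn2 the groups overlapped. Bax (ENSMUSG00000003873; chr7:45461697-45466898), the pore-forming effector of mitochondrial apoptosis, was read at 100.3, 107, and 115 CPM in JB81, JB91, and JB97 and at 104, 141, and 121 CPM in JB84, JB87, and JB93 (log2 fold change -0.19, SE 0.16; edgeR adjusted p = 0.421). Bax shares 192 of its 1576 exon bases with Gm45808 on the same strand, so some of its reads may be counted for neither or either gene. Bbc3 (ENSMUSG00000002083; chr7:16308393-16318205), which encodes the BH3-only protein Puma, was read at 12.3, 13.7, and 10.9 CPM in JB81, JB91, and JB97 and at 7.46, 13.5, and 9.22 CPM in JB84, JB87, and JB93 (log2 fold change 0.29, SE 0.28; edgeR adjusted p = 0.480). Sesn2 (ENSMUSG00000028893; chr4:132492032-132510501), a sestrin that restrains mTORC1 and is also induced by metabolic stress, was read at 90.2, 96.6, and 66.2 CPM in JB81, JB91, and JB97 and at 88.2, 68.0, and 100.5 CPM in JB84, JB87, and JB93. The Sesn2 means differed least of the 10 genes (log2 fold change -0.021, SE 0.22; edgeR adjusted p = 0.955).

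The number that opens a library name separated the lines into a first set of JB81, JB84, and JB87 and a second set of JB91, JB97, and JB93. Each set holds 1 line of each close pair, so the sets are not independent. Within both sets 7 of the 10 genes were lower in BNC, against 40.5% of all genes, Bbc3 was higher, and Trp53 and Sesn2 differed in sign between the sets. Mdm2 differed by -1.59 and -1.04, Ccng1 by -1.10 and -0.70, Zmat3 by -0.50 and -0.75, and Phlda3 by -0.89 and -1.02 on the log2 scale within the first and second set. Trp53 differed by -0.05 and 0.81. Of the lines outside the close pairs, JB97 was below JB87 in 8 of the 10 genes, with Mdm2 lower by a log2 difference of -0.98, Ccng1 of -0.53, Zmat3 of -0.47, and Phlda3 of -0.20. Of all genes tested, 50.1% were lower in JB97 than in JB87.

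**Figure D3:**
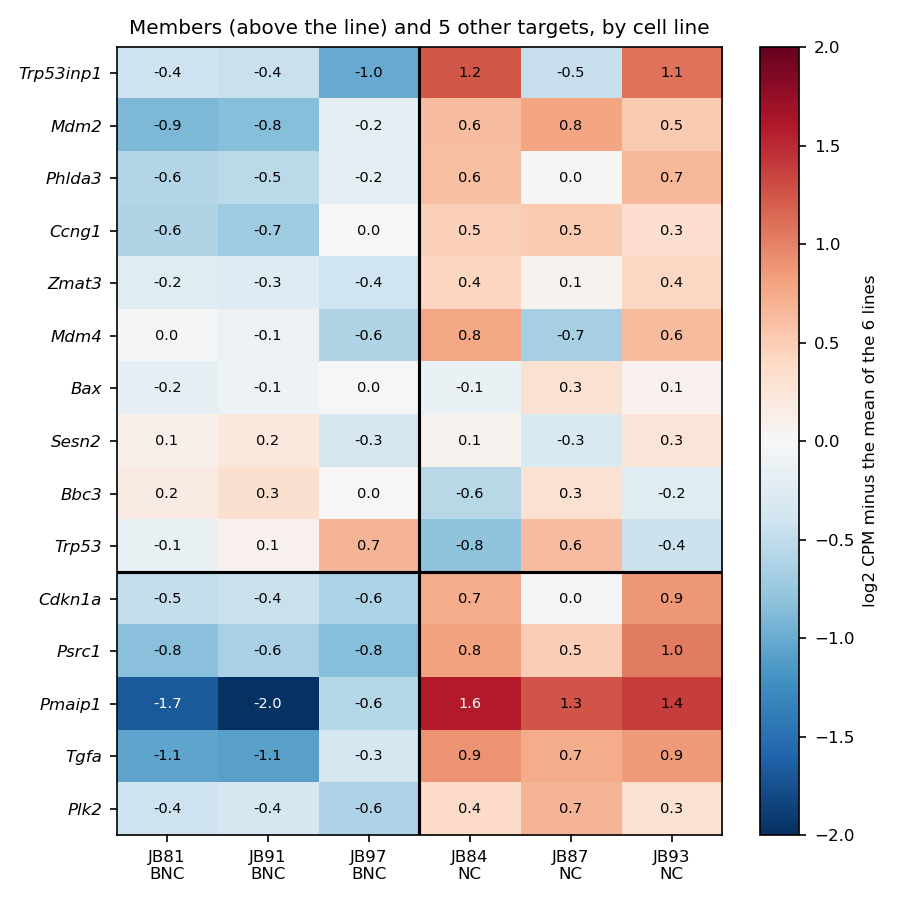
Level of the 10 genes (above the black line) and 5 other p53 target genes (below it) in each cell line, as log2 CPM minus the mean of the 6 lines (colour scale; red above, blue below the mean). Mdm2 and Ccng1 are high in all 3 NC lines, while Trp53inp1 and Mdm4 are high in JB84 and JB93 only, with JB87 near the BNC lines.

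The list of 35 other p53 target genes was chosen with earlier results of these data known, so its shares are not an independent result. All 35 genes of this wider set were tested. At an adjusted p-value under 0.05, 10 of them (28.6%) were lower in BNC and 0 higher by edgeR, against 8.45% and 5.78% of all genes, and 25 did not pass. None passed the stricter rule, against 1.1% of all genes. At an unadjusted p under 0.05, 15 were lower and 2 higher, against 19.7% and 15.9% of all genes. DESeq2 placed 14 lower and 2 higher, against 16.5% and 13.9% of all genes. Every BNC line was below every NC line in 16 of the 35 genes (45.7%) and above in 2, against 21.4% and 20.1% of all genes, and the median log2 fold change was -0.48. With all lines kept, 25 of the 35 had a lower mean in BNC, against 50.2% of all genes. With JB91 and JB93 left out, 0 of the 35 passed, as for all genes, and 29 of the 35 had a lower mean in BNC. None passed without JB81, JB91, JB84, or JB93 alone. Without JB87, 19 passed (15 lower and 4 higher). Of all 13091 genes tested without JB87, 6800 (51.9%) passed, 3337 of them lower in BNC.

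Cdkn1a, which encodes the cell cycle inhibitor p21 and is the best known p53 target, was read at 237, 242, and 211 CPM in JB81, JB91, and JB97 and at 552, 319, and 598 CPM in JB84, JB87, and JB93. It fell by 1.09 in log2 units (SE 0.26; edgeR adjusted p = 0.0442), and the groups did not overlap. Psrc1, a spindle protein gene, was read at 29.1, 33.0, and 28.7 CPM in the same BNC lines and at 90.6, 72.7, and 106 CPM in the same NC lines (log2 fold change -1.57, SE 0.18; edgeR adjusted p = 0.0105). Psrc1 had the smallest p-value of the 35 genes, and its intron match is printed above. Gtse1, a regulator of p53 in G2 phase with a match of as many mismatches, had a higher BNC mean that did not pass (log2 fold change 0.46, SE 0.51; edgeR adjusted p = 0.537). Pmaip1, which encodes the BH3-only protein Noxa, was read at 7.0, 5.75, and 15.3 CPM in BNC and at 67.4, 53.7, and 59.0 CPM in NC lines (log2 fold change -2.69, SE 0.41; edgeR adjusted p = 0.0167). Thus of the BH3-only genes Pmaip1 differed between the groups while Bbc3 did not pass, and the difference between these 2 genes was not tested. Tgfa, a growth factor of the EGF family, was read at 10.8, 10.5, and 17.6 CPM in BNC and at 41.8, 37.3, and 40.4 CPM in NC lines (log2 fold change -1.62, SE 0.25; edgeR adjusted p = 0.0168). Plk2, a polo-like kinase gene, was read at 136, 141, and 118 CPM in BNC and at 234, 290, and 222 CPM in NC lines (log2 fold change -0.92, SE 0.16; edgeR adjusted p = 0.0231). The other genes that passed were Btg2, Sfn, Aen, Pml, and Gls2, all lower in BNC.

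**Figure D4:**
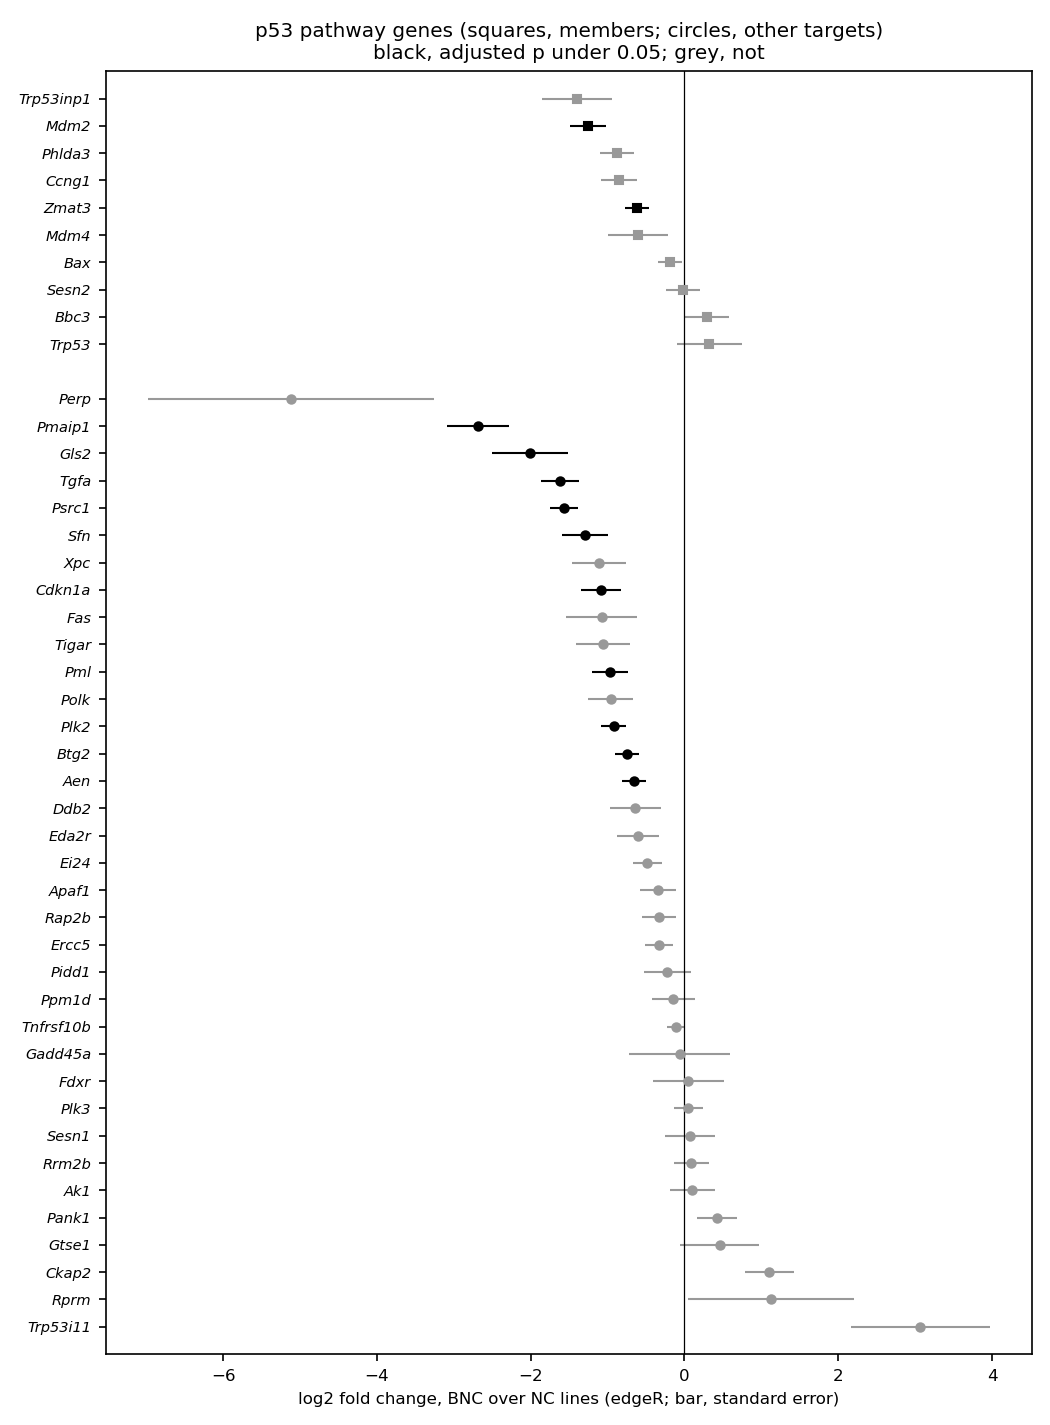
Log2 fold change of BNC over NC lines (horizontal axis; bars, standard error of the edgeR fit) for the 10 members (squares) and 35 other p53 target genes (circles); black symbols had an adjusted p-value under 0.05. All 12 black symbols lie left of 0.

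Of the other targets with higher means in BNC lines, none passed, and the nearest were Ckap2, a spindle gene that is also a proliferation gene, and Trp53i11 (log2 fold changes of 1.11 and 3.07, adjusted p = 0.0660 and 0.0707, edgeR; chosen after their values were seen). Perp, a desmosome protein gene and p53 target, also chosen after its values were seen, had the widest difference, with 0.27, 0.088, and 21.7 CPM in JB81, JB91, and JB97 and 315, 153, and 295 CPM in JB84, JB87, and JB93. The log2 fold change of -5.12 had a standard error of 1.86 and did not pass (edgeR adjusted p = 0.110). Perp is also an epithelial gene, and the mesothelial marker sums differed between the same lines. Whether that difference has a part in the Perp values was not tested.

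Regulators of p53 other than Mdm2 and Mdm4 formed a further list, also chosen with earlier results of these data known. Of 21 listed names 20 were in the table, and 19 had enough reads to be tested. None passed an adjusted p-value of 0.05 by edgeR, against 14.2% of all genes. At an unadjusted p under 0.05, 1 was lower and 3 were higher, against 19.7% and 15.9% of all genes. DESeq2 placed 1 lower and 1 higher, against 16.5% and 13.9% of all genes. The median log2 fold change was 0.0060. Without JB87, 5 of the 19 passed (3 lower and 2 higher), while 51.9% of all genes did. The p53 relative Trp63 was read at 13.99 and 14.1 CPM in JB81 and JB91 and at 0.258 CPM in JB97, whereas JB84, JB87, and JB93 had 0.678, 0.247, and 0.579 CPM, so its higher BNC mean rested on the close pair (log2 fold change 4.2, SE 1.35; edgeR adjusted p = 0.0854). Rpl5, a ribosomal protein that binds Mdm2, and Cop1, a ubiquitin ligase of p53, had log2 fold changes of -0.51 and 0.61 (standard errors 0.17 and 0.24, adjusted p = 0.0950 and 0.129, edgeR). Trp73, the other p53 relative, had at most 3 reads in any line.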

How the data were processed

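The authors deposited whole-number read counts per Ensembl gene, without normalization. Per the labels and the study's methods, poly-A RNA was sequenced as single-end reads, aligned to mm10 with TopHat 2.0.12, filtered for mapping quality and primary alignments, and counted with HTSeq-count. Its annotation and strand setting are not given in the sources used here, so overlapping and antisense genes are uncertain. Columns were placed in the BNC or NC group by line names in the study's supplementary column heads. A further 23 per-sample columns (9 from RNA and 14 from DNA) matched no label and were left out. Symbols were found for 98.5% of identifiers.

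In R 4.3.3, genes were filtered with edgeR 4.0.16 (filterByExpr, minimum count 10), scaled by TMM, and tested by the quasi-likelihood test without covariates. CPM values are TMM-scaled. The standard error is the log2 fold change divided by the square root of F. Differences between lines, also within a set, used a pseudocount of 0.5 CPM. DESeq2 1.42.0 was an alternative, as were library size scaling, 2 other filters, a replicate block, the number that opens a library name, summed close pairs, and leaving out lines, of which leaving out JB91 and JB93 together was chosen after seeing the data. The test was checked on simulated data in which every line was drawn independently, so the check does not cover the close pairs. Sites were searched in GRCm38 with GENCODE M21 transcripts (pysam 0.24.0), and figures drawn with Python 3.11.15 and matplotlib 3.10.9.

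The members and gene lists were chosen with earlier results of these data known. Named genes are the 10 members, Cdkn1a and the 4 other targets and 3 other regulators with the smallest p-values, the targeted genes, and the 3 genes most correlated with Trp53 (log2 CPM, prior count 2). Outside this rule, Btg2, Sfn, Aen, Pml, and Gls2 (which passed), Gtse1 (for its match), and Trp73 were named after their values were seen. The list of interferon genes was chosen after values were seen.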

Additional observations from a re-analysis of the deposited data

How the results depend on the processing

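The mean was lower in BNC lines in 7 to 8 of 10 members and in 24 to 30 of the other targets tested (35, or 32 with at least 10 counts in every line) under the alternatives run, but the counts past the threshold moved. Against 2 members at an adjusted p-value under 0.05, DESeq2 gave 5, library size scaling 4, and the filters of 1 count in any line and of 10 counts in every line 1 each. The library name number as covariate, the close pairs summed, and leaving out both JB91 and JB93 each gave 0. Leaving out 1 line gave 0 to 6, with 0 without JB81, JB91, JB84, or JB93 and 6 without JB87. Against 10 other targets, DESeq2 gave 16, the filter of 1 count in any line 4, the library name number 1, the close pairs summed 0, and leaving out JB91 and JB93 0. Leaving out 1 line gave 0 to 19, the most without JB87. Against 0 other regulators, DESeq2 gave 2 and leaving out 1 line 0 to 5. Under the stricter rule, against 0 members, DESeq2 gave 1 and leaving out 1 line 0 to 2. Of all genes, 1761 passed at 0.05 with all lines, 3718 by DESeq2, and 272 with the library name number. With the close pairs summed 0 passed, without JB91 15, and without JB87 6800. The counts of the lists did not follow those of all genes throughout. Library size scaling gave 1870 of all genes and 10 other targets, beside the 4 members. Without JB97, 3305 of all genes passed, with 3 members and 15 other targets. The cause was not tested.

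Deviations of same-numbered lines had correlations of 0.101, -0.0689, and 0.0817, and those of other pairs ran from -0.0873 to 0.0826. With a close pair in each group, these values cannot decide whether the replicate numbers in the column heads pair the lines. JB91 and JB97 carry the same number. With the replicate block, 0 members and 0 other targets passed at 0.05, as did 0 of all genes. Only JB93 carries the number 3, so that line added nothing to the group difference in this fit. Sesn2 changed sign with the replicate block (0.16), and between -0.14 and 0.13 on the log2 scale when lines were left out 1 at a time (0.13 without JB97 and 0.10 without JB93). Library size scaling shifted the median of all genes by -0.14 on the log2 scale. Within 500 bases of the start, the share of genes with a p53 site was 0.136% at 1 mismatch and 0.776% at 2, with Ccng1 in both and Bax in the second.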

Other observations

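A pair of interferon-response genes, chosen after their values were seen, was highest in JB84 and JB93, as Trp53inp1 and Mdm4 were. In JB87 the pair was low but still above every BNC line, whereas Trp53inp1 and Mdm4 were not. Isg15 was read at 149.5 and 162 CPM in JB84 and JB93, at 2.39 CPM in JB87, and at 0.22, 0.27, and 0.10 CPM in JB81, JB91, and JB97. Ifit1 was read at 185 and 182 CPM in JB84 and JB93, at 3.87 CPM in JB87, and at 0.044, 0.22, and 0.31 CPM in JB81, JB91, and JB97. Pml, a target of p53 that is also an interferon-response gene, was read at 38.4, 41.0, and 64.7 CPM in JB81, JB91, and JB97 and at 84.5, 98.6, and 99.2 CPM in JB84, JB87, and JB93, so it was high in JB87 as well. Whether the interferon genes have a part in the p53 target values was not tested.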
